A study of Homo sapiens with 8 samples.

Results

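The albumin family of serum transport proteins was examined in HepG2 cells grown on a flat or on a three-dimensional substrate. The family has 4 genes on human chromosome 4, namely ALB, AFP, AFM and GC, and all 4 were found by their Ensembl identifiers among the 38032 gene identifiers of the count files. HepG2 is a cell line derived from a human hepatocellular carcinoma, labelled as wild type. Cells were grown for 8 days in flat culture plastic (2D-primed, 4 libraries) or on Alvetex Strata, an inert porous polystyrene scaffold (3D-primed, 4 libraries), in the same medium with foetal bovine serum, and were then detached with trypsin for RNA extraction. Cells were seeded at a higher density on the scaffold than on the plastic, so that substrate and seeding density cannot be told apart. Libraries of polyadenylated RNA held 21599630 to 25019499 estimated counts for 2D-primed and 22153063 to 27844077 for 3D-primed cells. The labels give the libraries as replicates without saying that they came from separate cultures, so p-values measure the spread between these libraries, which may be technical.

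Albumin is the main protein of adult plasma, where it carries fatty acids, hormones, bilirubin and drugs and holds water in the circulation. Alpha-fetoprotein (AFP) is its counterpart in the fetal liver and yolk sac. AFP is switched off after birth, returns in many hepatocellular carcinomas and is measured in blood as a tumour marker. Afamin (AFM) carries vitamin E and Wnt proteins, and the vitamin D-binding protein (GC) carries vitamin D metabolites and scavenges actin released from dying cells. The liver secretes all of them, and ALB and AFP share upstream elements bound by hepatic transcription factors of the C/EBP, FOXA, NFI and nuclear receptor families.

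On GRCh38, ALB (ENSG00000163631), AFP (ENSG00000081051) and AFM (ENSG00000079557) lie one after the other on the plus strand. Their reference (MANE) transcripts have 15 exons each and run from 73404287 to 73421482, from 73436221 to 73456174 and from 73481745 to 73504001 of chromosome 4. ALB ends 14.7 kb before AFP starts, and AFP ends 25.6 kb before AFM starts. GC (ENSG00000145321) stands apart, 1.62 Mb away on the minus strand, from 71741697 to 71784079, in 13 exons. The transcripts are 2285 (ALB), 2426 (AFP), 1997 (AFM) and 1685 (GC) bases long, introns excluded.

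The sequences upstream of ALB, AFP and AFM are shown because they hold several of the same short patterns while the RNA levels of the genes are far apart. Each is the 250 bases before the RefSeq transcript start on the plus strand of GRCh38.p14, at chr4:73404037-73404286, chr4:73435971-73436220 and chr4:73481495-73481744. Capitals mark GTTAAT, one of the short runs of bases found in all 3 windows.
ALB: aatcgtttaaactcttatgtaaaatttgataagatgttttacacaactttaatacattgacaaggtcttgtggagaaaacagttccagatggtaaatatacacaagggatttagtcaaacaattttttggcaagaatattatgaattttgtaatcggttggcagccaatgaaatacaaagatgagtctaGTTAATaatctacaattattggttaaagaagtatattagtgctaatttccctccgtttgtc
AFP: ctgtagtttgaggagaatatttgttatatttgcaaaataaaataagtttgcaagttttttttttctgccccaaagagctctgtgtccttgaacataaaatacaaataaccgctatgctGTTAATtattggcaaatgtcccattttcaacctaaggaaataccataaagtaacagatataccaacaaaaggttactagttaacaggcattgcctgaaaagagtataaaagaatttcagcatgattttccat
AFM: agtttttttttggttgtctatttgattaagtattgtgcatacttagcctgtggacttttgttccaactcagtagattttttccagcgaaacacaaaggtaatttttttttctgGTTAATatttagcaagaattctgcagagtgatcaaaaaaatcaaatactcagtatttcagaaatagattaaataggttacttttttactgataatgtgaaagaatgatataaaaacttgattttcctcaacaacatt
GTTAAT began 61 bases before the start of ALB, 132 before AFP and 137 before AFM, on the plus strand in all 3. Searched on both strands, GTTAAT was found in 6.23% of the 35116 RefSeq promoter windows of this length. The letters TTGGCA, a core of the NFI site, were found 124 and 93 bases before ALB and 124 bases before AFP, and in 10.8% of all windows. TTGCNNAA, a C/EBP-type pattern, matched all 3 windows, starting 125 (ALB), 221 (AFP) and 130 (AFM) bases upstream, and 9.05% of all windows. The match before ALB overlapped the TTGGCA farther from its start. A TATAAA box lay 29 bases before AFP and 30 before AFM and was not in the ALB window (10.7% of all windows). CCAAT was found 86 and, on the minus strand, 44 bases before ALB. It was also found on the minus strand 125 bases before AFP, where it overlapped TTGGCA, and in 32.0% of all windows. TCAAGG, the core of the site of NR5A2, was found on the minus strand 165 bases before AFP and in 10.5% of all windows. These matches describe letters, not bound sites.

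Counts were scaled between libraries by the TMM method and are given as CPM, which sets each library to the same total. Each log2 fold change sets 3D-primed over 2D-primed cells. Across the genome, 8916 of the 13943 genes tested passed an adjusted p of 0.05 in edgeR's quasi-likelihood test, which is 63.9%, with 32.4% higher and 31.6% lower in 3D-primed cells. The median log2 fold change of all genes tested was 0.01, and the median size of the change of the called genes was 0.48. In the family, ALB and AFP rose in 3D-primed cells, GC did not pass the threshold, and AFM had too few counts to be tested. In bulk RNA, more cells that express a gene and more RNA per cell cannot be told apart.

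ALB was the most abundant gene of the whole table in each of the 8 libraries. It was counted at 25923, 27314, 24617 and 27670 CPM in 2D-primed replicates 1 to 4, and at 48962, 40900, 43856 and 42356 CPM in 3D-primed replicates 1 to 4. Every 3D-primed library lay above every 2D-primed library, as was the case for 30.2% of all genes tested, and 3D-primed replicate 1 was the highest. In 1 direction or the other, the groups did not overlap in 59.8% of the genes tested. The mean went from 26381 ± 1397 to 44019 ± 3509 CPM (SD, n = 4), or 1.67-fold (log2 fold change 0.74, SE 0.0575, edgeR quasi-likelihood test, adjusted p = 1.9e-06). Without 3D-primed replicate 1 the log2 fold change was the smallest of the leave-one-out values, which ran from 0.68 to 0.77. Of all genes tested, 9.12% had a larger log2 fold change than ALB.

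AFP changed more than ALB and varied less between replicates. Its levels were 8359, 8777, 8403 and 9165 CPM in the 2D-primed libraries and 19552, 18304, 18596 and 18528 CPM in the 3D-primed libraries. The groups were far apart, and 3D-primed replicate 1 was again the highest. The mean rose from 8676 ± 376 to 18745 ± 552 CPM (SD, n = 4), or 2.16-fold (log2 fold change 1.11, SE 0.0382, edgeR quasi-likelihood test, adjusted p = 2.0e-08). The coefficient of variation was 4.33% and 2.95% for AFP in 2D-primed and 3D-primed cells, against 5.30% and 7.97% for ALB. By counts AFP ranked 10th or 11th among all genes in 2D-primed libraries and second, after ALB, in all 3D-primed libraries. Of all genes tested, 4.37% had a larger log2 fold change than AFP. Among the 100 genes with the highest mean CPM, 84 were called, 56 of them higher, and AFP had the 7th and ALB the 17th largest log2 fold change.

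**Figure D1:**
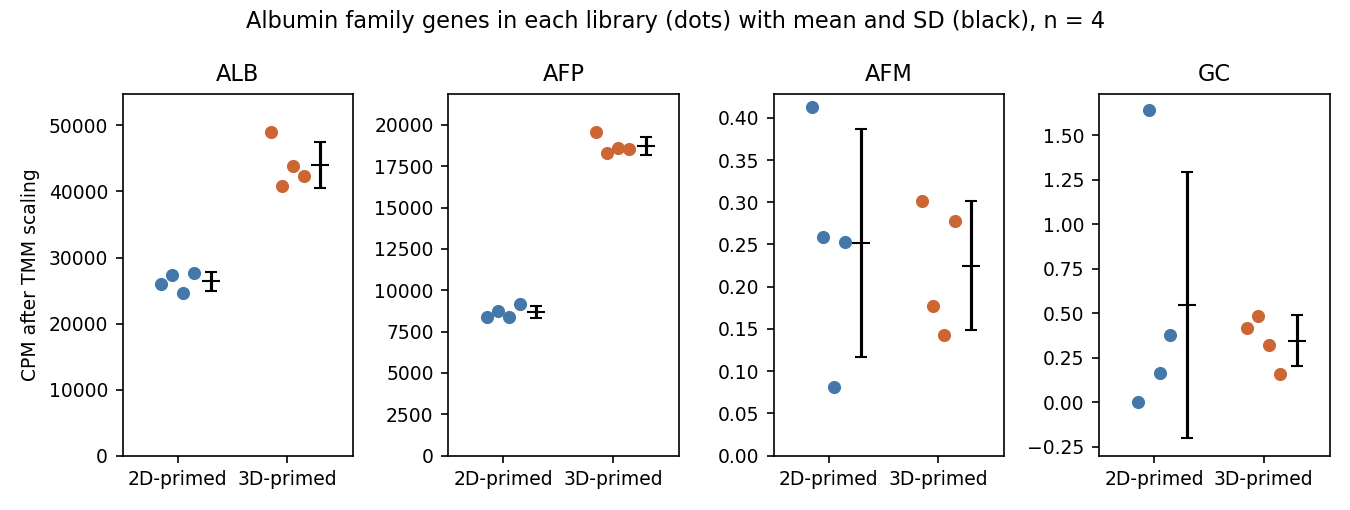
The 4 panels show the TMM-scaled CPM (vertical axis, a separate scale per gene) of ALB, AFP, AFM and GC in each 2D-primed (blue) and 3D-primed (orange) library, in replicate order, with the mean and SD of 4 libraries in black. For ALB and AFP every 3D-primed dot lies above every 2D-primed dot, while AFM and GC stay under 2 CPM with overlapping groups, and the SD bar of 2D-primed GC runs below 0 because of 1 high library.

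AFM was close to the limit of detection. It had 9, 6, 2 and 6 counts in the 2D-primed and 8, 4, 4 and 7 counts in the 3D-primed libraries, 23 in each group. The 95% exact Poisson interval, which covers counting error only, ran from 4.12 to 17.1 for the highest library and from 0.242 to 7.22 for the lowest. All libraries lay under 10 counts, the groups overlapped, and the gene did not pass the filter of at least 10 counts in at least 2 libraries. At 0.251 ± 0.135 CPM in the 2D-primed and 0.225 ± 0.0767 CPM in the 3D-primed libraries (SD, n = 4), no difference was detectable at this depth. Fitted without the filter, its log2 fold change was -0.14 (SE 0.499, edgeR quasi-likelihood test, adjusted p = 0.85).

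GC was as scarce, and 1 library decided its direction. It had 0, 38, 4 and 9 counts in 2D-primed replicates 1 to 4 and 11, 11, 9 and 4 counts in 3D-primed replicates 1 to 4. The 0 counts of 2D-primed replicate 1 allow a level of up to 0.137 CPM, by the limit of 3 counts used for a count of 0 in place of the two-sided interval, while replicate 2 of the same group had the highest value of all, 1.64 CPM. The 3D-primed libraries lay within the range of the 2D-primed ones. The means were 0.546 ± 0.747 CPM in the 2D-primed and 0.346 ± 0.142 CPM in the 3D-primed libraries (SD, n = 4), with a log2 fold change of -0.66 (SE 0.881, edgeR quasi-likelihood test, adjusted p = 0.53). Without 2D-primed replicate 2 it was 0.89 (edgeR, adjusted p = 0.33), and with limma-voom on all libraries 0.53 (adjusted p = 0.66). GC passed the filter through 2D-primed replicate 2 and 3D-primed replicates 1 and 2.

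Per kilobase of transcript, the order of the family was ALB, AFP, and far below them GC and AFM. ALB stood at 11545 ± 611 and 19264 ± 1536 CPM per kb in 2D-primed and 3D-primed cells (SD, n = 4), and AFP at 3576 ± 155 and 7727 ± 228. GC was at 0.324 ± 0.443 and 0.205 ± 0.0841 CPM per kb, and AFM at 0.126 ± 0.0677 and 0.113 ± 0.0384, so that GC and AFM did not differ beyond their spread. The mean of GC in 2D-primed cells rested on replicate 2. Averaged over the 8 libraries, the level of ALB per kilobase was 2.73 times that of AFP, and no fold is given against GC and AFM, which had few counts.

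Before any scaling, ALB took 2.62%, 2.67%, 2.42% and 2.74% of all counts in the 2D-primed libraries and 4.87%, 4.17%, 4.40% and 4.33% in the 3D-primed libraries. The mean share was 2.61 ± 0.138% and 4.44 ± 0.298% (SD, n = 4). AFP took 0.845%, 0.859%, 0.826% and 0.907% in 2D-primed and 1.94%, 1.87%, 1.86% and 1.90% in 3D-primed libraries, with means of 0.859 ± 0.0349% and 1.89 ± 0.0368%. Neither gene had overlapping groups. The 2 genes together held 3.47 ± 0.169% of the counts of 2D-primed and 6.33 ± 0.331% of those of 3D-primed cells. Each share gave p = 0.029 in a two-sided exact permutation test, the smallest that 4 against 4 libraries allow, and 0.057 after adjustment over the 4 shares, so that the shares did not pass 0.05 once adjusted. For AFM and GC the same exact test gave p = 0.77 and 0.91. Transcripts of mitochondrial DNA also took a larger part of the counts in 3D-primed libraries, 2.47 to 2.98% against 1.40 to 1.81%. The share of ALB differed by 1.83 percentage points between the groups and that of AFP by 1.03, and by 1.91 and 1.07 with mitochondrial transcripts left out of the total.

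**Figure D2:**
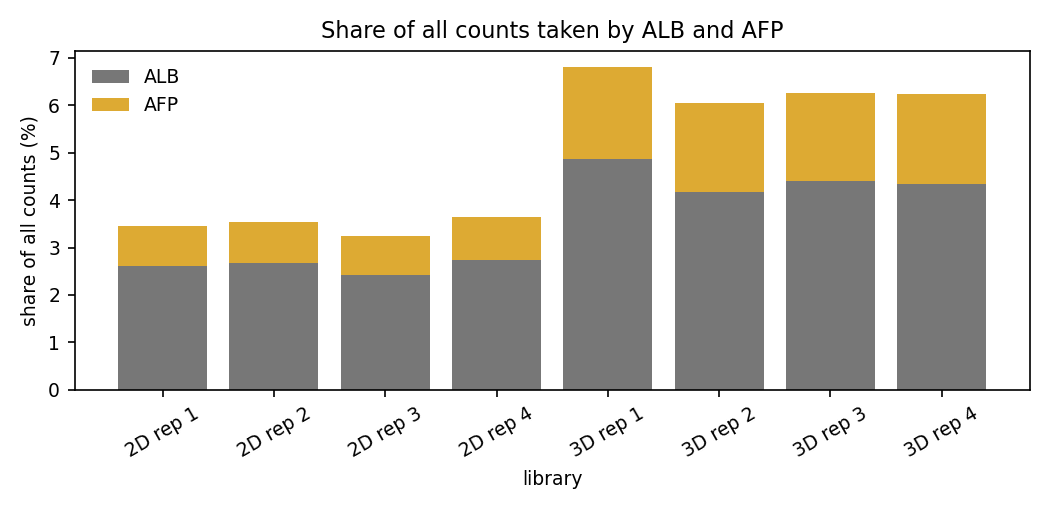
Stacked bars give the share of all counts (percent, before scaling) taken by ALB (grey) and AFP (yellow) in each of the 8 libraries. The 4 2D-primed bars reach 3.24 to 3.65% and the 4 3D-primed bars 6.04 to 6.81%.

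The ratio of AFP to ALB within a library needs no scaling between libraries and sets the fetal against the adult member of the family. It was 0.322, 0.321, 0.341 and 0.331 AFP counts per ALB count in 2D-primed and 0.399, 0.448, 0.424 and 0.437 in 3D-primed libraries. The groups did not overlap, and 3D-primed replicate 1, the library with the most ALB, was the lowest of its group. The mean ratio was 0.329 ± 0.00929 and 0.427 ± 0.0209 (SD, n = 4), a difference of 0.38 on the log2 scale or 1.30-fold (two-sided exact permutation test, p = 0.029, the smallest possible). Per transcript length the ratio was 0.310 ± 0.00875 and 0.402 ± 0.0196. Leaving out each library in turn gave 0.35 to 0.41 on the log2 scale. Both genes rose, AFP by more, and ALB stayed the more abundant of the 2 in every library.

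Other genes with a fetal or broadly expressed form and an adult liver form did not all move in that direction. The 4 other pairs given here had a ratio in every library. The ratio of CYP3A7, the main fetal cytochrome P450 of the CYP3A family, to its adult form CYP3A4 was higher by 1.44 on the log2 scale without overlap. Its error is large, since CYP3A4 had 8 to 22 counts per library and the transcripts of the 2 genes are similar. The ratio of the brain to the liver form of glycogen phosphorylase, PYGB to PYGL, was higher by 0.32 without overlap, while both genes fell (log2 fold changes -0.24 and -0.56, edgeR adjusted p = 0.0011 and 2.0e-06).

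By contrast, the ratio of the broad to the liver form was lower in a glycolytic and in a methionine pair. The log2 ratio of pyruvate kinase M to its liver form PKLR changed by -0.92 and that of MAT2A to MAT1A by -1.36, in both with no overlap. PKM fell from 1834 ± 96.1 to 785 ± 89.7 CPM (SD, n = 4; log2 fold change -1.22, edgeR adjusted p = 5.2e-07). PKLR was also lower, at 11.3 ± 1.18 and 9.16 ± 1.02 CPM with overlapping groups (log2 fold change -0.30, edgeR adjusted p = 0.022). Its call was lost without 2D-primed replicate 1, 2 or 4 or 3D-primed replicate 2 or 3 (edgeR, adjusted p = 0.051, 0.053, 0.064, 0.057 and 0.052). MAT1A, the S-adenosylmethionine synthetase of adult liver, rose 2.42-fold (edgeR, adjusted p = 3.2e-06), whereas MAT2A, its counterpart in other tissues, did not pass the test (0.01, edgeR adjusted p = 0.97). The pairs other than AFP to ALB were described and not tested.

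**Figure D3:**
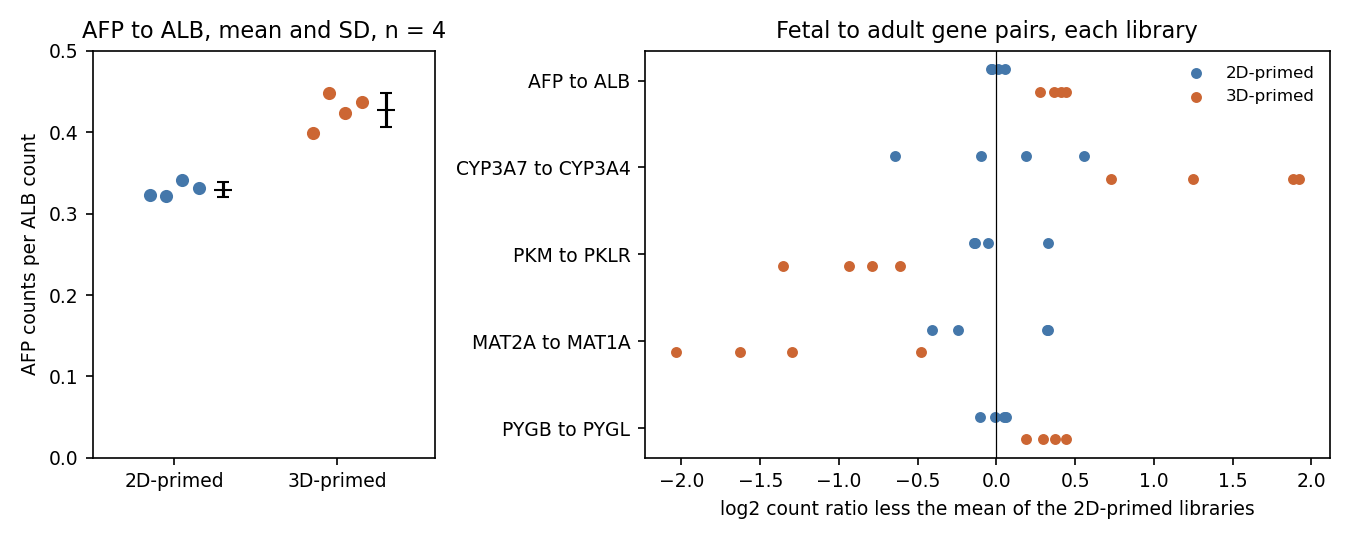
Left, AFP counts per ALB count (vertical axis from 0) in each library, with the mean and SD of 4 libraries per group. Right, the log2 ratio of 5 fetal or broad to adult gene pairs in each library, less the mean of the 2D-primed libraries (blue 2D-primed, orange 3D-primed). AFP to ALB, CYP3A7 to CYP3A4 and PYGB to PYGL lie to the right in all 3D-primed libraries, and PKM to PKLR and MAT2A to MAT1A to the left.

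Of 22 transcription factors listed as activators of the ALB and AFP region, 8 were higher, 9 lower and 5 not called in 3D-primed cells, with a median log2 fold change of -0.03 against 0.01 for all genes tested. With 4 listed repressors of AFP, 80.8% of the 26 regulators were called, against 63.9% of all genes, and the activators did not move one way. CEBPA, the C/EBP factor of quiescent hepatocytes, was counted at 86.9, 78.1, 66.8 and 74.6 CPM in the 2D-primed and 176, 158, 153 and 163 CPM in the 3D-primed libraries (log2 fold change 1.09, SE 0.0754, edgeR adjusted p = 8.9e-07). CEBPB, the form induced in acute phase responses and regeneration, had 57.8, 62.7, 59.1 and 60.7 CPM in the 2D-primed and 143, 138, 146 and 152 CPM in the 3D-primed libraries (log2 fold change 1.27, SE 0.0431, edgeR adjusted p = 2.0e-08). Neither gene had overlapping groups. The third family member, CEBPD, fell from 50.1 ± 7.80 to 21.1 ± 2.16 CPM (SD, n = 4; log2 fold change -1.25, edgeR adjusted p = 5.8e-06).

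Of the FOXA pioneer factors, FOXA1 (0.32) and FOXA3 (0.50) rose and FOXA2 (-0.43) fell in log2 units (edgeR, adjusted p = 6.5e-05, 1.4e-04 and 1.5e-04). The NFI factors fell together: log2 fold changes were -0.56 for NFIA, -1.29 for NFIC and -0.92 for NFIX, with edgeR adjusted p of 4.3e-05, 5.8e-08 and 6.8e-07. NFIC went from 36.6 ± 2.56 to 14.9 ± 0.146 CPM (SD, n = 4). ONECUT2, a factor of hepatoblasts, rose 2.12-fold (log2 fold change 1.08, edgeR adjusted p = 4.0e-06), whereas its paralog ONECUT1 (0.09, edgeR adjusted p = 0.42) and GATA4 (0.19, edgeR adjusted p = 0.077) did not pass the test. The nuclear receptors HNF4A (0.27) and HNF4G (0.21) and the PAR-domain factor HLF (0.27) rose slightly, with edgeR adjusted p of 1.9e-04, 0.0019 and 2.3e-04, and its relative TEF fell slightly (-0.17, edgeR adjusted p = 0.0095, but 0.054 with upper-quartile scaling).

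Known repressors of AFP were examined as a group of their own, because AFP is silenced after birth by such factors. Of the 4 listed, 3 were lower and 1 was higher in 3D-primed cells, while of all genes tested 31.6% were lower and 32.4% higher. ZBTB20, a zinc finger protein that silences AFP after birth, had 18.5, 20.7, 21.3 and 18.3 CPM in the 2D-primed and 11.3, 11.7, 14.0 and 10.8 CPM in the 3D-primed libraries (log2 fold change -0.72, SE 0.0889, edgeR adjusted p = 4.7e-05). ZHX2, a homeobox protein that underlies inherited persistence of AFP in mice, had 77.2, 99.2, 85.4 and 93.1 against 58.7, 60.4, 68.4 and 52.7 CPM (log2 fold change -0.56, SE 0.0904, edgeR adjusted p = 3.0e-04). ZFHX3, also called ATBF1, which binds an AT-rich enhancer element of AFP, went from 184 ± 14.1 to 109 ± 8.77 CPM (SD, n = 4; log2 fold change -0.76, edgeR adjusted p = 5.3e-06). These 3 genes fell with no overlap between groups, as was found in either direction for 59.8% of all genes tested.

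**Figure D4:**
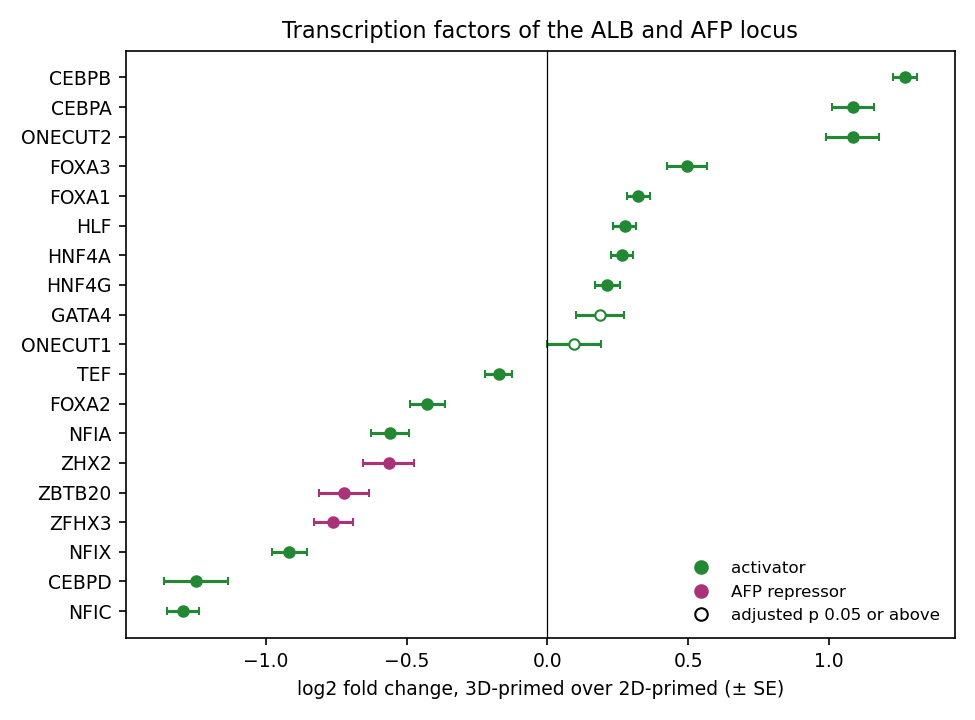
Log2 fold change, 3D-primed over 2D-primed, with its SE (horizontal axis) for 19 listed regulators with a mean of 10 CPM or more, activators in green and AFP repressors in purple; open circles did not pass an adjusted p of 0.05 in edgeR. CEBPB, CEBPA and ONECUT2 lie to the right of 1, NFIC is the farthest left at -1.29, and the 3 repressors shown lie left of 0.

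AFP belongs to the oncofetal genes, which the fetal liver and liver tumours share. Of 16 such genes listed, 15 were tested (H19 was not matched to a row), and 7 were higher, 7 lower and 1 not called, with a median log2 fold change of -0.04. That is 93.3% called, against 63.9% of all genes tested, whose median was 0.01. The 6 with the largest changes at 10 CPM or more were split. DLK1, a Notch-like surface protein of hepatoblasts, rose from 388 ± 27.3 to 1048 ± 81.3 CPM (SD, n = 4; log2 fold change 1.43, edgeR adjusted p = 8.3e-08). PEG10, an imprinted retrotransposon-derived gene, rose by 0.78 and AKR1B10, an aldo-keto reductase of liver tumours, by 1.01 in log2 units (edgeR, adjusted p = 1.4e-05 and 2.3e-06). The fetal growth factor IGF2, itself one of the most abundant genes in these cells, went the other way, from 19031 ± 1265 to 11284 ± 1956 CPM (log2 fold change -0.75, edgeR adjusted p = 1.2e-04). KRT19, a keratin of bile duct and progenitor cells, fell 3.19-fold (edgeR, adjusted p = 8.0e-08), and SOX9, a factor of the same cells, fell 1.67-fold (edgeR, adjusted p = 2.3e-06). AFP was thus accompanied by some oncofetal genes and not by others.

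Of 23 genes that make, recycle, take up or act on the cargo of these proteins, 22 were tested, with 11 higher, 7 lower and 4 not called and a median log2 fold change of 0.27. The share called was 81.8%, beside 63.9% over all genes tested. CYP24A1, the enzyme that degrades vitamin D, the cargo of GC, fell from 18.8 ± 2.58 to 2.34 ± 0.521 CPM (SD, n = 4), 7.94-fold (log2 fold change -2.99, SE 0.149, edgeR adjusted p = 1.2e-07). DHCR7, which consumes the precursor of vitamin D in cholesterol synthesis, rose 1.98-fold (edgeR, adjusted p = 1.1e-06). ERO1A, an oxidase for disulphide bonds in the endoplasmic reticulum, fell 3.13-fold (edgeR, adjusted p = 1.1e-06). FURIN, a convertase that cleaves secretory proproteins, fell from 72.7 ± 3.42 to 41.0 ± 2.77 CPM (edgeR, adjusted p = 6.8e-07). AMN, a partner of the albumin receptor cubilin, rose 1.75-fold (edgeR, adjusted p = 1.2e-05), and SPARC, an albumin-binding matrix protein, fell 1.73-fold (edgeR, adjusted p = 5.9e-05). CUBN, the gene of cubilin itself, is below the level set for naming, with 2 to 14 counts per library.

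To place the family among other hepatocyte products, 15 hepatocyte markers were counted, all of them secreted proteins except the nuclear receptor HNF4A, which is also among the regulators above. Of these 12 were higher, 2 lower (APOB and SERPINA1) and 1 not called (AHSG), with a median log2 fold change of 0.49. The calls of SERPINA1 and AHSG changed with the settings, over which their adjusted p ran from 0.0011 to 0.13 and from 0.0057 to 0.23. VTN, 1 of the 12 higher, also lost its call in some settings (edgeR, DESeq2 and limma-voom settings, adjusted p from 0.0054 to 0.097). The number of markers called higher ran from 11 to 13. Over all genes tested, 32.4% were higher and 31.6% lower, with a median of 0.01. The fibrinogen genes FGA, FGB and FGG exceeded AFP in log2 fold change, and APOA2 and TTR also exceeded ALB. All 15 markers were detected in every library. Of 15 markers of other liver cells, 6 had at most 2 counts in any library (PTPRC, CD163, STAB2, COL1A2, KRT7 and CFTR). Of the 9 tested, 3 were higher, 4 lower and 2 not called. The summed leukocyte and macrophage markers ran from 73.5 to 76.0 CPM in the 2D-primed and from 32.5 to 42.7 CPM in the 3D-primed libraries, nearly all of it CD68, a lysosomal protein. Endothelial markers summed to at most 7.68 CPM, led by CDH5 in 2D-primed libraries, and stellate markers to 40.5 to 48.6 CPM, led by ACTA2. Cholangiocyte markers summed to 295 to 316 CPM in the 2D-primed and 170 to 204 CPM in the 3D-primed libraries, all but a trace of it SOX9. The part of these markers in the changes of ALB and AFP was not tested, and CD163 and STAB2 had no count in any library.

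The genes around the family were examined along the chromosome. Within 2 Mb of either end of the cluster or of GC, 66 other genes are annotated with a row in the files; 29 had no count, and 13 were tested. Of these 5 were higher, 6 lower and 2 not called, with a median log2 fold change of 0.11. The share called was 84.6%, against 63.9% of all genes tested (32.4% higher and 31.6% lower), and the called neighbours moved in both directions. The nearest tested gene on the side of ALB, ANKRD17, an ankyrin repeat protein whose lower coordinate lies at -0.331 Mb from the start of ALB, had 157 ± 5.92 and 145 ± 6.29 CPM (SD, n = 4; log2 fold change -0.11, edgeR adjusted p = 0.049), with overlapping groups, and its call was lost in 10 of the 18 other settings. Beside it, COX18, an assembly factor of the respiratory chain, did not pass the test (0.17, edgeR adjusted p = 0.074). RASSF6, which follows AFM, had 1 to 7 counts per library. The nearest tested gene on the side of AFM was CXCL8, a chemokine that attracts neutrophils, at 0.336 Mb from the start of ALB. It had 15 to 33 counts per library and fell from 1.25 ± 0.213 to 0.751 ± 0.127 CPM (SD, n = 4; log2 fold change -0.72, edgeR adjusted p = 0.017), with no overlap.

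Farther away, MTHFD2L, a mitochondrial folate enzyme 0.710 Mb beyond the start of ALB, rose from 4.82 ± 0.412 to 9.02 ± 0.554 CPM (log2 fold change 0.90, edgeR adjusted p = 1.0e-05). RCHY1, a ubiquitin ligase, rose by 0.40 and UTP3, a factor of ribosome synthesis, by 0.43 in log2 units (edgeR, adjusted p = 0.0035 and 5.9e-05). GRSF1, an RNA-binding protein of mitochondria, rose by 0.13 (edgeR, adjusted p = 0.015). ODAM, an enamel-associated protein (-0.63), RUFY3, an adaptor for vesicle transport (-0.71), and the nucleoside kinase DCK (-0.26) fell, with edgeR adjusted p of 0.0019, 8.3e-06 and 9.3e-04. MOB1B, an adaptor of the Hippo pathway, did not pass the test (0.11, edgeR adjusted p = 0.13). AREG, a ligand of the EGF receptor, at 1.04 Mb, fell from 2.68 ± 0.502 to 1.15 ± 0.190 CPM (log2 fold change -1.22, edgeR adjusted p = 3.3e-04). CXCL8, AREG and SULT1E1, the oestrogen sulphotransferase at -3.56 Mb, are below the level set for naming and were chosen after their values were seen. SULT1E1 had the largest change of the 13, at 0.567 ± 0.165 and 5.07 ± 0.864 CPM (log2 fold change 3.15, edgeR adjusted p = 9.1e-07).

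**Figure D5:**
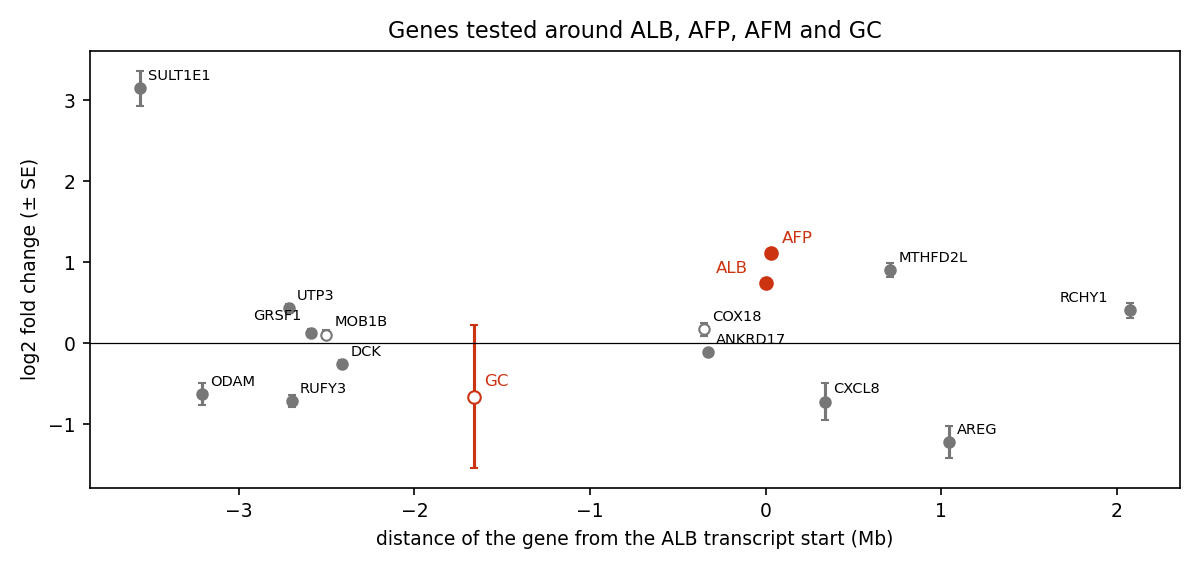
Log2 fold change, 3D-primed over 2D-primed, with its SE (vertical axis) against the distance of each tested gene from the ALB transcript start in Mb (horizontal axis), family members in red and neighbours in grey; open circles did not pass an adjusted p of 0.05 in edgeR. ALB and AFP lie at 0.74 and 1.11 next to each other, the nearest tested neighbours lie at -0.11 (ANKRD17) and 0.17 (COX18) on the side of ALB and at -0.72 (CXCL8) on the side of AFM, and the SE bar of GC crosses 0.

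Genes whose pattern over the 8 libraries lay nearest to each member were ranked by the root mean square difference of centred log2 CPM, among the genes of 10 CPM or more (8988 for ALB and AFP, 8989 for GC). Nearest to ALB were ELMOD2 (0.0394), LIPA, the lysosomal acid lipase (0.0422), and EXOC6B, an exocyst subunit (0.0509). Nearest to AFP were CARS1, the cysteinyl-tRNA synthetase (0.0394), DPYD, the enzyme that degrades pyrimidines (0.0572), and DBI, which binds acyl-CoA (0.0577). No gene came as near to GC, whose best match was an identifier without a symbol at 0.762. GC had 0 to 38 counts per library, so counting error enters its pattern far more than those of ALB and AFP. Its distances therefore do not show whether other genes share its pattern.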

How the data were processed

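For each library the authors deposited estimated counts per gene, made with Salmon on an Ensembl cDNA set of GRCh38 and summed to genes with tximport; they are whole numbers, were used as they are, and whether transcript length enters them is not given in the sources used here. The split of reads between similar transcripts, such as those of CYP3A7 and CYP3A4, rests on that estimate. Identifiers were matched to GENCODE symbols for 92.0% of the rows, which held 97.5% of the counts.

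A gene was tested when 2 or more of the 8 libraries had 10 counts or more (13943 genes), with edgeR 4.0.16 in R 4.3.3, by glmQLFit and glmQLFTest after TMM scaling, with Benjamini-Hochberg adjustment over all of them and a threshold of 0.05. TMM factors ran from 0.978 to 1.02. The pipeline was also run on simulated counts in which far fewer genes changed than were called here. That run does not cover changes this widespread. Between libraries of a group, chi-square over its degrees of freedom was 6.07 to 16.4, so no library was a copy of another. Shares of counts and the AFP to ALB ratio were compared by a two-sided exact permutation test, with a smallest p of 0.029.

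The genes named are the 4 members, fetal and adult pairs, listed regulators with a mean of 10 CPM or more, the 6 largest changes among oncofetal and among protein-handling genes at that level, neighbours within 2 Mb with a mean of 5 CPM or more, and the 3 genes nearest in pattern to each tested member. Some single genes that this rule names, and the pairs that hold them, are not reported here, although they stayed in every test and tally. Members and lists were chosen with earlier results of these data known. Promoter sequences came from RefSeq (GRCh38.p14), for 3 of the 4 members, and 6 motifs were searched. Alternatives were DESeq2 1.42.0, limma-voom (limma 3.58.1), other scalings and filters, a replicate block and leaving out each library. Figures were drawn with matplotlib 3.10.9 (Python 3.11.15, pandas 2.3.3).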

Additional observations from a re-analysis of the deposited data

Results flagged for a closer look

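The value of 1 library stood apart from the other 3 of its group in 6 of the 134 groups of 4 values examined for the 62 named genes, the shares of counts and the AFP to ALB ratio, where chance flags about 1 in 20. No value of ALB, AFP, AFM or GC was among them. In 2D-primed replicate 1, AKR1B10, CYP24A1 and ODAM were high at 36.0, 22.6 and 21.3 CPM. In 2D-primed replicate 2, COX18 was high at 12.5 CPM. In 3D-primed replicate 3, CYP24A1 was high at 3.12 CPM, and in 3D-primed replicate 4, FOXA1 was high at 83.1 CPM.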

How the results depend on the processing

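ALB and AFP rose past the threshold under all 18 other settings, at 0.68 to 0.79 for ALB and 1.08 to 1.16 for AFP on the log2 scale. The number of genes called ran from 8357 (without 2D-primed replicate 3) to 9070 (upper-quartile scaling), with 8413 by DESeq2. GC reversed to 0.53 with limma-voom, and leaving out each library gave -1.06 to 0.89; it could not be tested with filterByExpr or with 10 counts required in all 8 libraries. The cause was not tested. The difference in unscaled CPM, leaving out each library, ran from -0.0798 to 0.0324 for AFM and from -0.365 to 0.170 for GC. Hepatocyte markers called lower went from 2 to 1 without a filter and with the replicate block. The other list tallies moved as well. Members called higher ran from 5 to 7 (oncofetal), 9 to 12 (protein-handling), 8 to 10 (regulators), 4 to 7 (neighbours) and 2 to 3 (other cell markers). Those called lower ran from 6 to 7 (oncofetal), 6 to 8 (protein-handling), 11 to 12 (regulators), 5 to 6 (neighbours) and 3 to 5 (other cell markers). Genes that did not pass the test also changed sign: MAT2A was at -0.062 with limma-voom, -0.052 with the block and -0.33 to 0.17 leaving out each library, and leaving out each library gave -0.55 to 0.014 for CYP3A4, -0.019 to 0.14 for ONECUT1, -0.69 to 0.013, -0.15 to 0.32 and -0.17 to 0.31 for the 3 identifiers nearest to GC. ANKRD17, PKLR and TEF lost their call in 10, 5 and 1 of the 18 other settings, and COX18, GATA4 and MOB1B gained one in some. Of the hepatocyte and other cell markers named, SERPINA1 and VTN lost their calls in some settings, and AHSG and ACTA2 gained one.

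Libraries that share a replicate number did not deviate together (r = -0.043, -0.014, 0.057 and 0.0062 across genes), so no pairing by number was seen. Such values cannot show whether the cultures were paired by design. With the replicate block 8490 genes were called, and ALB was at 0.74, AFP at 1.11 and GC at -0.11 as log2 fold changes (edgeR, adjusted p = 7.0e-05, 3.6e-06 and 0.92).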

Other observations

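In 2D-primed replicate 2, CRP, an acute phase protein of hepatocytes, had 38 counts, the same number as GC, against 0, 1 and 0 in the other 2D-primed libraries and 9, 9, 3 and 6 in the 3D-primed libraries. CRP was looked at after the values of GC were seen. GC and CRP were among 5 genes with at least 25 counts in that library and more than 3 times the count of every other library, and the other libraries had 4 to 8 such genes each.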
